A study of Homo sapiens with 6 samples.

Results

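NRF2 (gene NFE2L2) and 9 genes of the antioxidant defence were followed in SW780 cells after exposure to RC48. The genes were picked by symbol and by role, namely NFE2L2 itself, NQO1, HMOX1, GCLC, GCLM, TXNRD1, SRXN1, SLC7A11, SOD1 and SOD2. All 10 were present among the 16390 genes listed in the count tables, and all 10 passed the filter on low counts. SW780 is an established human bladder cancer line of luminal type. RC48 (disitamab vedotin) is an antibody-drug conjugate in which an antibody to ERBB2 carries the microtubule poison monomethyl auristatin E. The cells were given RC48 at 25 µg/ml, and their counterparts without the conjugate served as Control, with 3 RNA-seq libraries in each group and no other genotype or agent. The duration of exposure in this experiment was not given in the sources used here. Nothing stated that the libraries came from separate cultures, so every p-value measures the spread between these libraries, which may be technical, within 1 cell line. The comparison asked how the transcriptome of a luminal, ERBB2-expressing line differed after exposure to the conjugate.

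NRF2 is a transcription factor that KEAP1 holds in the cytoplasm and sends for degradation in unstressed cells. When oxidants or electrophiles modify KEAP1, NRF2 accumulates, pairs with a small MAF protein and binds antioxidant response elements (AREs) in genes for glutathione synthesis, thioredoxin recycling, quinone reduction and heme breakdown. BACH1 competes for the same elements and represses several of these genes. SOD2, the mitochondrial superoxide dismutase, is also a well known target of NF-kB.

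The response elements are part of what defines this gene set, so the stretches of promoter that held the core of the element are shown first. The core was searched as TGACNNNGC on both strands, in windows from 250 bases before to 50 bases after each RefSeq transcription start (GRCh38.p14). For 7 of the 10 genes a promoter was at hand, with 12 starts between them, and 3 of these 12 windows held the core, against 13.3% of all 35116 promoter windows. They belonged to GCLM and to both starts of TXNRD1. Each line gives the gene's own strand from 5′ to 3′ with 20 bases on either side, and capitals mark the core or its reverse complement.
GCLM, chr1:93909436-93909484, minus strand: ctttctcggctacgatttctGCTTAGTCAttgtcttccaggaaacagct
TXNRD1, chr12:104215660-104215708, plus strand: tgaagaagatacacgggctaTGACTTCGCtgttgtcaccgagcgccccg
TXNRD1, chr12:104215751-104215799, plus strand: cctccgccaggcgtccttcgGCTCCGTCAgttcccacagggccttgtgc
TXNRD1, second start, chr12:104286910-104286958, plus strand: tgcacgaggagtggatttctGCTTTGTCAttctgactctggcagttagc
The match of GCLM lay 34 to 26 bases before the start, and that of the second TXNRD1 start 102 to 94 bases before it. The NF-kB consensus, found in 11.3% of all promoter windows, had no match in the 12 windows, those of SOD2 included. Such a match describes letters only, and elements farther from a start lie outside these windows.

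Estimated counts per library summed to between 16453233 and 17988030. The 3 Control libraries lay close together, and the RC48 libraries did not. Chi-square per degree of freedom over 11977 genes was 1.44 to 11.6 between Control libraries and 22.3 to 135.6 between RC48 libraries. RC48 replicates 1 and 3 also differed from Control with the GC content of the transcripts. Across 12992 genes, Spearman's rho between GC content and the log2 ratio to the Control mean was 0.75 in replicate 1, 0.58 in replicate 3 and -0.015 in replicate 2, a description over genes that share a library. For the 10 genes and the other named genes, values with a correction for the GC trend, or without one of these libraries, are given where they moved a result. Luminal and epithelial markers were present throughout (GATA3 217 to 308 CPM, ERBB2 185 to 277 CPM), although KRT20 stayed at or below 2.03 CPM. The luminal markers summed to 761 to 776 CPM in Control and 696 to 867 CPM in RC48. FOXA1 was at 147 CPM in Control and 87.7 to 123 CPM in RC48, and EPCAM at 140 to 155 and 81.9 to 124 CPM. KRT20 was at 1.94 to 2.03 and 0.49 to 1.00 CPM. The basal markers, 4 of 5 listed, summed to 333 to 352 CPM in Control and 310 to 343 CPM in RC48, mostly CD44. The summed leukocyte markers were 17.7 to 18.4 CPM in Control and 19.6 to 38.3 CPM in RC48, almost all of it CD68, and the leukocyte gene PTPRC did not exceed 0.061 CPM. Of the fibroblast markers, 5 of 6 were listed, DCN and PDGFRB were under 1 CPM in every library, and the sum of 444 to 475 CPM in Control and 444 to 558 CPM in RC48 came mostly from COL3A1 and LUM. The part of these markers in the results was not tested.

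None of the 10 genes passed edgeR's quasi-likelihood test at an adjusted p of 0.05, against 2.21% of all 13055 genes tested (1.98% called higher and 0.23% lower). DESeq2 also called 0 of them, against 4.78% of the genes it tested, and so did edgeR with the GC correction, against 7.47%. The fitted change was below 0 for 7 genes and above 0 for SRXN1, SOD1 and SOD2, and it ranged from -0.49 to 0.40 on the log2 scale. The median over the 10 was -0.16, beside 0.02 over all genes tested. At an unadjusted p under 0.05 there was 1 of 10, NQO1, against 19.1% of all genes, and NQO1 was also the only gene whose groups did not overlap, against 31.5% of all genes, 14.1% with RC48 lower. The lowest count of any of the 10 genes in a library was 214. In bulk RNA, a lower level per cell and fewer cells that express a gene cannot be told apart. Levels below are counts scaled by TMM to a common library size (CPM), which allow a gene to be compared between libraries but not with another gene.

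**Figure D1:**
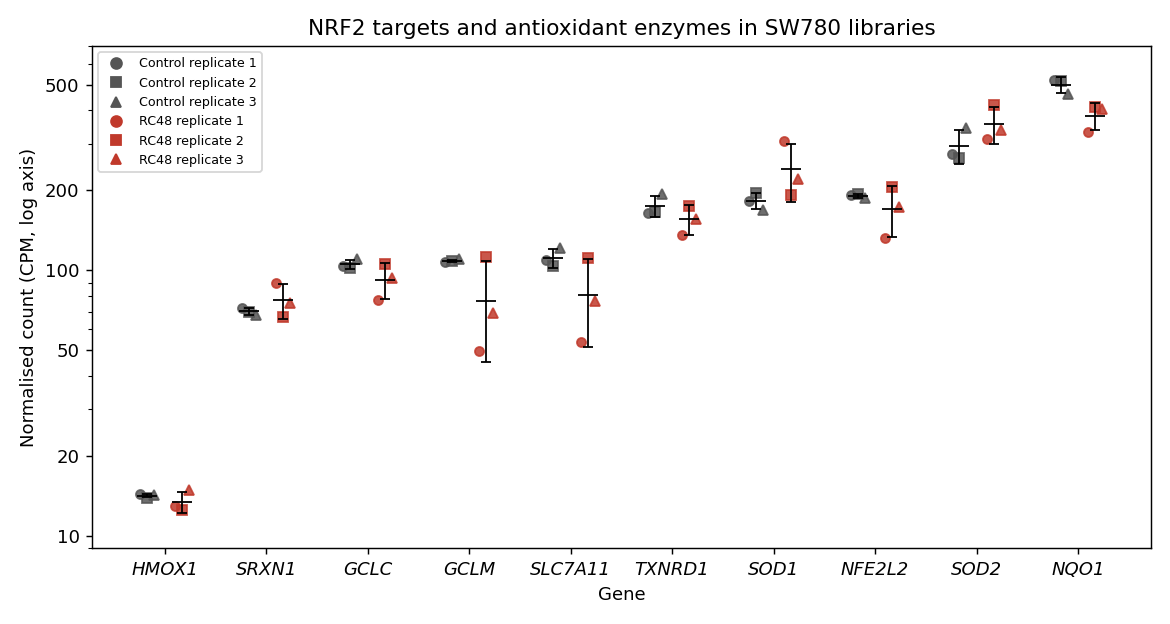
Normalised counts (CPM, log axis) of the 10 genes in each of the 6 SW780 libraries, ordered by their Control mean, with bars at the mean ± SD of 3 libraries. Control points sit close together for most genes, RC48 replicate 1 is the lowest point for 6 genes, and the groups are apart for NQO1 alone.

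NFE2L2 (chr2:177230303-177264727, GRCh38.p14), the regulator, was measured at 192, 194 and 187 CPM in the Control libraries and at 133, 206 and 173 CPM in RC48 replicates 1, 2 and 3. Replicate 2 was above every Control library and replicates 1 and 3 below, so the groups overlapped. The fitted difference was -0.16 on the log2 scale (SE 0.17, edgeR adjusted p = 0.53), smaller than its error. With the GC trend taken out, it was -0.02 (adjusted p = 0.87).

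NQO1 (chr16:69709401-69726560), which reduces quinones and is among the most widely used readouts of NRF2, had the clearest separation of the set. Its level was 521, 518 and 462 CPM in Control and 332, 411 and 404 CPM in RC48. All 3 RC48 libraries lay below all 3 Control libraries, and replicate 2, which had no GC trend, stood close to replicate 3. The mean was 500.3 ± 33.5 CPM in Control and 382.7 ± 43.8 CPM in RC48 (SD, n = 3 each). This gave a log2 difference of -0.39 (SE 0.13, edgeR adjusted p = 0.19). The GC correction left the difference at -0.36 and the groups apart, with an adjusted p of 0.054. Without RC48 replicate 1 and with the GC correction, NQO1 passed the test at -0.31 (adjusted p = 0.028), in a fit that called 12.9% of all genes, 6.86% as lower. It was below 0 in all 18 alternative fits and passed in 5 of them, with adjusted p from 2.71e-05 to 0.52.

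HMOX1 (chr22:35381096-35394207), which encodes heme oxygenase and is a classical NRF2 and BACH1 target, was low and nearly flat. It was measured at 14.3, 14.0 and 14.3 CPM in Control and at 13.0, 12.5 and 14.9 CPM in RC48. The groups overlapped, and the difference was -0.08 (SE 0.14, edgeR adjusted p = 0.72). HMOX1 has the highest GC content of the 10 genes (60.8%), and after the GC correction its 3 RC48 values, 9.24, 13.6 and 13.9 CPM, were all below the Control range of 15.3 to 16.5 CPM. The corrected difference was -0.38 and did not pass (adjusted p = 0.17).

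Glutathione synthesis was represented by the catalytic subunit GCLC and the modifier subunit GCLM of glutamate-cysteine ligase, and by SLC7A11, the cystine carrier that supplies cysteine. GCLM (chr1:93885199-93909430) had the lowest fitted difference of the 10. Its Control values of 107, 108 and 110.0 CPM spread by little, whereas the RC48 values were 49.6, 112 and 69.4 CPM. Replicate 2 lay above every Control library, so the groups overlapped despite 2 low values, and the difference was -0.49 (SE 0.27, edgeR adjusted p = 0.31). SLC7A11 (chr4:138164097-138242349) showed the same order, with 109, 104 and 121 CPM in Control and 53.6, 112 and 77.0 CPM in RC48. Its difference was -0.46 (SE 0.25, adjusted p = 0.30). GCLC (chr6:53497341-53545101) varied less, with 104, 102 and 110.4 CPM in Control and 77.4, 106 and 93.4 CPM in RC48. Its RC48 replicate 2 fell within the Control range, and the difference was -0.20 (SE 0.14, adjusted p = 0.40).

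SLC7A11 and GCLM have the lowest GC content of the set, 35.4% and 40.1%, and their low values were in the libraries with a GC trend. Genes with the GC content of SLC7A11 had a fitted log2 ratio of -1.19 in RC48 replicate 1 and -0.48 in replicate 3. With that trend removed, SLC7A11 stood at 101, 89.1 and 89.3 CPM in RC48 beside 90.6, 88.0 and 98.7 CPM in Control. The difference then went from -0.46 to 0.01 (adjusted p = 0.95). GCLM kept a part of its difference, with corrected RC48 values of 76.5, 97.2 and 75.6 CPM beside 94.8 to 97.1 CPM in Control, and -0.20 on the log2 scale (adjusted p = 0.27). GCLC was 95.9 to 96.5 CPM in RC48 after correction, just under the 97.7 to 104 CPM of Control, at -0.06 (adjusted p = 0.62). After correction the groups of 3 of the 10 genes did not overlap (NQO1, HMOX1 and GCLC, each lower in RC48), against 34.4% of all genes.

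**Figure D2:**
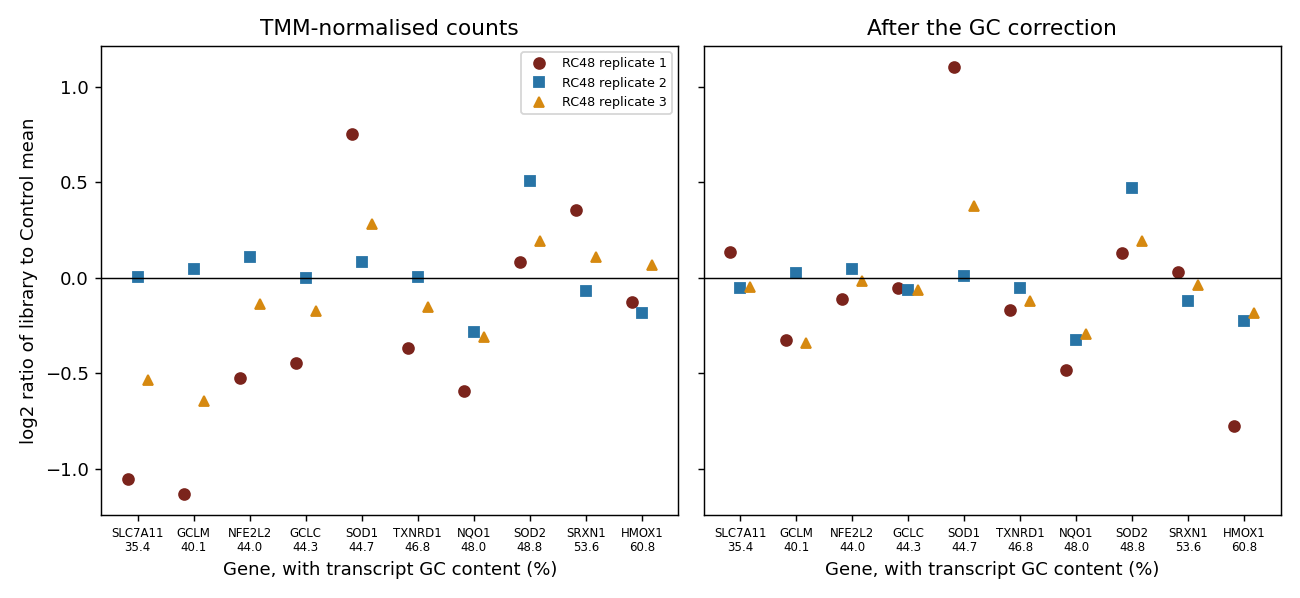
Values of the 3 RC48 libraries as log2 ratios to the mean of Control for the 10 genes, ordered by transcript GC content (percent, under each name), from TMM-normalised counts (left) and after the GC correction (right). SLC7A11 and GCLM lie near -1 in replicate 1 on the left, SLC7A11 comes back to about 0 on the right, NQO1 stays below 0 in all 3 libraries on both sides, and SOD1 and HMOX1 in replicate 1 move farther from 0.

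In the thioredoxin arm, TXNRD1 (chr12:104215779-104350307), the cytosolic thioredoxin reductase, was at 165, 166 and 193 CPM in Control and at 135, 175 and 157 CPM in RC48. Both groups covered 165 to 175 CPM, and the difference was -0.16 (SE 0.14, edgeR adjusted p = 0.46). SRXN1 (chr20:646615-653200), sulfiredoxin, which restores overoxidised peroxiredoxins, was at 72.4, 69.8 and 68.1 CPM in Control and at 89.6, 66.8 and 75.7 CPM in RC48. Replicate 2 lay below all Control libraries and the other RC48 libraries above them, at 0.14 (SE 0.14, adjusted p = 0.52). The sign of SRXN1 turned with the GC correction, to -0.04 (adjusted p = 0.76).

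The cytosolic and mitochondrial superoxide dismutases, which turn superoxide into hydrogen peroxide, were both higher on average in RC48. SOD1 (chr21:31659693-31668931) was at 183, 195 and 169 CPM in Control and at 307, 193 and 222 CPM in RC48. RC48 replicate 2 lay within the Control range and replicate 1 was far above it, and the difference was 0.40 (SE 0.18, edgeR adjusted p = 0.27). The GC correction raised replicate 1 to 375 CPM and the difference to 0.57 (adjusted p = 0.18). Without RC48 replicate 1 the difference was 0.18. SOD2 (chr6:159669069-159762281) was at 275, 265 and 344 CPM in Control and at 312, 419 and 336 CPM in RC48. Control replicate 3 exceeded 2 of the RC48 libraries, and the difference was 0.27 (SE 0.16, adjusted p = 0.33). The GC correction left it at 0.27 (adjusted p = 0.22).

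Which libraries entered the fit decided several calls. RC48 replicate 1 was the lowest of the 6 libraries for 6 genes, and replicate 2 was close to Control for most. Without RC48 replicate 2, edgeR called 4 of the 10 genes, namely GCLM (-0.87, adjusted p = 0.018), SLC7A11 (-0.77, adjusted p = 0.026) and NQO1 (-0.44, adjusted p = 0.046) as lower and SOD1 (0.53, adjusted p = 0.041) as higher, against 28.3% of all genes in that fit. Without RC48 replicate 1 it called 0 of 10, against 6.82% of all genes, with GCLM at -0.27 and SLC7A11 at -0.25. The 2 RC48 libraries kept when replicate 2 was left out are those with the GC trend. With sample weights (voom), which gave RC48 replicate 3 a weight of 7.64 and replicates 1 and 2 weights of 0.097 and 0.26, 7 of the 10 genes passed, beside 61.4% of all genes.

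TPM, the abundance that RSEM scales to transcript length, allows levels to be compared between genes. On it 4 of the 10 passed that did not on the counts of all 6 libraries, against 22.2% of all genes. TPM tables of 5 libraries were used, all but RC48 replicate 2. With counts of these 5 libraries edgeR, which called 28.3% of all genes, also called GCLM, SLC7A11 and NQO1, but not SOD2 (0.14, adjusted p = 0.48). SOD1 was called on those counts and not on TPM (limma adjusted p = 0.096). In Control the order of mean TPM was SOD1 (493), NQO1 (399), NFE2L2 (156), TXNRD1 (92.8), SOD2 (70.9), SRXN1 (55.8), GCLC (53.4), GCLM (41.6), SLC7A11 (21.0) and HMOX1 (20.2). SRXN1 and GCLC differed by less than the SD of GCLC, and SLC7A11 and HMOX1 by less than the SD of either. After RC48, by the mean of 2 libraries, SOD1 stayed first and NQO1 second, and SOD2 moved from rank 5 to rank 3, above NFE2L2. The order of NQO1 and SOD2 turned between these libraries, at 232 and 294 TPM in replicate 1 and at 305.5 and 195 TPM in replicate 3.

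SOD2 was at 68.8, 62.1 and 81.9 TPM in the Control libraries and at 294 and 195 TPM in RC48 replicates 1 and 3. The lower RC48 value was 2.38 times the highest Control value, while the counts of the same libraries overlapped with Control. On log2(TPM + 1), limma gave a difference of 1.75 (SE 0.19, adjusted p = 0.0022), the largest of the 10 genes in either direction. In the same fit 22.2% of all genes were called, 6.29% as higher. The median of all genes in it was -0.09, and with TPM scaled to each library's median the SOD2 difference was 1.93 (adjusted p = 0.0034). Leaving out libraries in turn gave 1.45 to 2.05. Of the Control libraries, leaving out replicate 3 lost the call (1.86, adjusted p = 0.071), and leaving out replicate 1 or 2 did not. Without RC48 replicate 1 or 3 the RC48 group is a single library, assumed to vary like the Control libraries, so the values of 1.45 and 2.05 from these fits have no replicate check. Of the other 9 genes, 3 passed on TPM as lower, GCLM (-0.97, adjusted p = 0.021), SLC7A11 (-0.84, adjusted p = 0.029) and NQO1 (-0.58, adjusted p = 0.027), against 15.9% of all genes, from the same RC48 libraries with the GC trend.

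A count and a TPM of 1 gene in 1 library differ by the effective length that RSEM gives the gene, which is a mean over its transcripts weighted by their estimated abundance. Counts per TPM, divided by the library's median over genes, therefore trace that length. For SOD2 the value was 2.30, 2.45 and 2.64 times the library median in Control, and 0.56 and 0.97 times in RC48 replicates 1 and 3. The 2 groups were far apart, and relative to the Control mean the log2 value was lower by -2.13 in replicate 1 and -1.34 in replicate 3. In both libraries this was the lowest value of 10155 genes, of which 95% lay between -0.16 and 0.27 in replicate 1 and between -0.077 and 0.083 in replicate 3. The other 9 genes differed by -0.02 to 0.11 on average, so their counts and TPM moved together. In the test across genes, limma gave SOD2 a difference of -1.74 (SE 0.26, unadjusted p = 0.0023, adjusted p = 0.24). That test called 0 of the 10155 genes at an adjusted p of 0.05, and 9.07% had an unadjusted p under 0.05. Leaving out libraries in turn gave -2.13 to -1.34. The adjusted p passed only without RC48 replicate 3 (0.0032), a fit in which RC48 is replicate 1 alone and its spread is assumed to be that of Control.

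**Figure D3:**
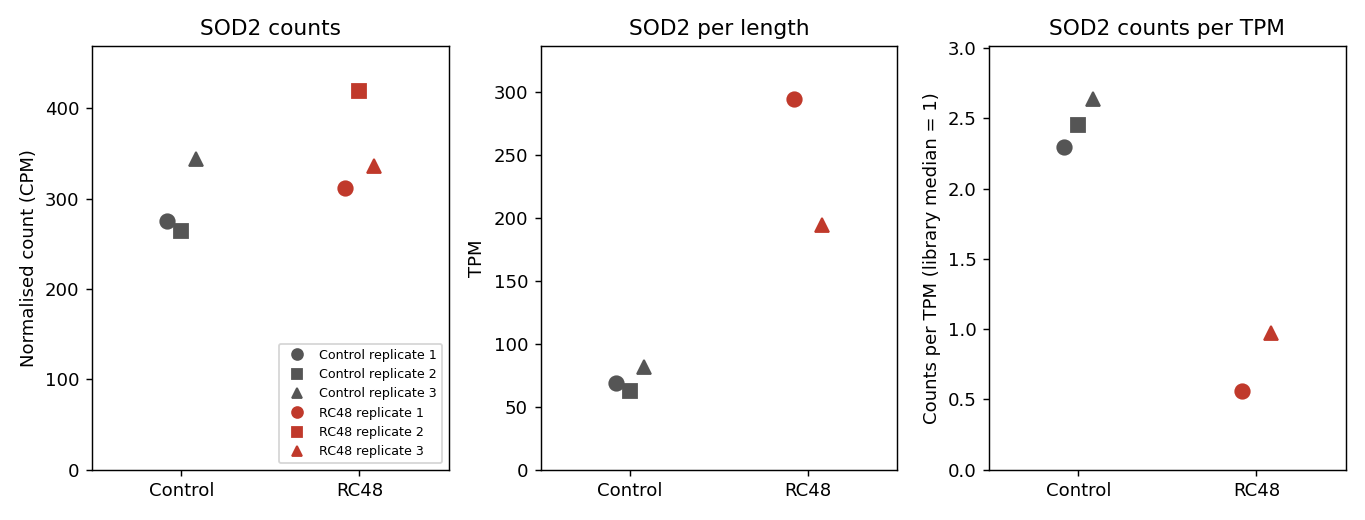
SOD2 in each library as normalised counts (CPM, left), as TPM (middle) and as counts per TPM relative to the library median (right), with no TPM value for RC48 replicate 2. The CPM of the groups overlap, whereas TPM is 62.1 to 81.9 in Control and 195 to 294 in RC48, and counts per TPM are 2.30 to 2.64 in Control and 0.56 to 0.97 in RC48.

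SOD2 is a gene for which the transcripts differ greatly in length. GENCODE release 29 lists 11 protein-coding transcripts of 507 to 14266 bases, and RefSeq places 4 starts for it on chromosome 6, at 159693241, 159726950, 159727384 and 159762281 on the minus strand. Its counts were also not whole numbers in any library (4757.25 in Control replicate 1 and 5143.82 in RC48 replicate 1), which RSEM gives where reads are shared with another gene. Which transcripts carried the reads cannot be read from gene-level tables. Whether the SOD2 message rose, by the TPM, or its transcript mix alone differed was therefore not tested. The RC48 libraries with TPM, replicates 1 and 3, are also those with the GC trend (Spearman's rho 0.75 and 0.58). The part of that trend in the TPM and counts per TPM of SOD2 was not tested. For replicate 2, without the trend, no TPM was used.

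The wider antioxidant machinery was read from 7 lists of 80 genes, of which 79 were tested (SOD3 was not). Among them 3 genes were called, all higher in RC48, beside 1.98% of all genes called higher, and the median over the 79 was 0.19, beside 0.02 over all genes. These medians were 0.07 and -0.02 after the GC correction. The 3 were in the list of detoxification enzymes and other targets. TRIM16, a ubiquitin ligase linked to the handling of protein aggregates, went from 86.0, 84.3 and 81.1 CPM to 220, 159 and 180 CPM (1.15, SE 0.14, edgeR adjusted p = 0.0074). AKR1B1, aldose reductase, went from 1834, 1868 and 1563 CPM to 4274, 3192 and 3652 CPM (1.08, SE 0.15, adjusted p = 0.011). SQSTM1, the autophagy receptor p62, which binds KEAP1, went from 505, 507 and 458 CPM to 907, 822 and 928 CPM (0.85, SE 0.11, adjusted p = 0.0092). None of the 3, named because they were called, had any overlap between the groups. The groups of 28 of the 79 genes, and of 31.5% of all genes, did not overlap. Replicate 2, close to Control for most of the 10 genes, was well above Control for these 3.

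The direction of TRIM16, AKR1B1 and SQSTM1 held in all 18 alternative fits, and 14 of these kept each call. Corrected for GC, the changes were 0.98, 0.90 and 0.55 (adjusted p = 0.00044, 0.0012 and 0.038). Each of the 3 calls was lost in the fits that dropped any single Control library or RC48 replicate 3 (adjusted p from 0.051 to 0.096), while the fitted changes stayed between 0.80 and 1.17. TRIM16 and AKR1B1 have close relatives (TRIM16L, AKR1B10) with which reads could be shared, so their counts are uncertain to that extent.

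Of the 8 regulators none passed, and 7 were above 0, with a median of 0.41. With the GC correction the median was 0.20, beside -0.02 over all genes. BACH1, MAFF and NFE2L3 then passed as higher, against 4.14% of all genes. KEAP1, the repressor of NRF2, was at 95.1, 95.7 and 88.0 CPM in Control and at 183, 91.4 and 118 CPM in RC48 (0.49, SE 0.24, edgeR adjusted p = 0.28), high in replicate 1 and within the Control range in replicate 2. KEAP1 was at 0.12 with the GC correction and at 0.17 without RC48 replicate 1. It passed at 0.70 (adjusted p = 0.032) without RC48 replicate 2, where 28.3% of all genes were called. BACH1 was at 31.1, 32.7 and 34.6 CPM in Control and at 28.0, 57.9 and 44.3 CPM in RC48 (0.41, SE 0.25, adjusted p = 0.34). With the GC correction BACH1 passed at 0.57 (adjusted p = 0.029). Without RC48 replicate 1 it passed at 0.63 (adjusted p = 0.0091), where 6.82% of all genes were called, and without replicate 2 it was at 0.14. On TPM its sign was reversed, at -0.01.

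The small MAF genes, whose products pair with NRF2 or BACH1, were all fitted above 0. MAFF was nearest to the threshold, with 27.1, 24.2 and 23.6 CPM in Control and 57.8, 40.1 and 39.4 CPM in RC48 (0.87, SE 0.18, edgeR adjusted p = 0.060). Its groups did not overlap, and it passed in 10 of 18 alternative fits, the GC correction among them (0.55, adjusted p = 0.012). MAFK (0.55, adjusted p = 0.25) and MAFG (0.32, adjusted p = 0.33) did not pass, and the GC correction brought them to 0.18 and 0.04. MAFK passed without RC48 replicate 2 (0.70, adjusted p = 0.039), where 28.3% of all genes were called. NFE2L1, a relative of NRF2 and the regulator with the most counts, was at 0.42 (adjusted p = 0.23), and at 0.20 with the GC correction.

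Among the 23 genes of glutathione use none passed, and 16 were above 0, with a median of 0.22. The GC-corrected median was 0.08. The gene with the most counts, the glutathione transferase GSTM1, was at 0.25 (edgeR adjusted p = 0.27, and 0.08 with the GC correction), and its close relatives may share its reads. None of the 14 thioredoxin and peroxiredoxin genes passed (PRDX1, a peroxiredoxin, 0.03, adjusted p = 0.87). The same held for the 6 NADPH genes (TKT, transketolase, 0.02, adjusted p = 0.94, and -0.29 with the GC correction) and the 7 heme and iron genes (FTH1, ferritin heavy chain, 0.35, adjusted p = 0.25, and 0.16 with the GC correction). Of the 3 tested genes for superoxide and peroxide none passed (PON2, 0.06, adjusted p = 0.80). With the GC correction, 8 of the 79 genes passed, namely AKR1B1, BACH1, GSTM4, MAFF, NFE2L3, SQSTM1 and TRIM16 as higher (4.14% of all genes were) and GGCT as lower (3.32% of all genes were).

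SOD2 is shared with NF-kB, so its own list of NF-kB targets was set beside it. Of 11 such genes tested, 10 were called higher, beside 1.98% of all genes, with a median log2 difference of 3.01. This list, like the others, was chosen with earlier results of these data known, so the count is not an independent test. NFKBIA, the gene of the list with the most counts and the inhibitor that NF-kB induces to end its own signal, went from 84.6, 87.4 and 78.3 CPM to 364, 282 and 277 CPM (1.88, SE 0.15, edgeR adjusted p = 0.00073). TNFAIP3, a deubiquitinase that restrains the pathway, went from 5.26, 4.46 and 5.18 CPM to 53.1, 62.6 and 58.1 CPM (3.54, SE 0.15, adjusted p = 7.7e-05). IL32, CXCL8, CXCL3, RELB and ICAM1 were called as well, from 2.59 (ICAM1) to 6.09 (CXCL8), and LTB was at 0 in each Control library and at 10.6 to 13.1 CPM in RC48. By CPM, each of the 11 was higher in all RC48 libraries than in all Control libraries. The groups of 31.5% of all genes did not overlap in either direction, 14.1% with RC48 lower. The CPM of SOD2 overlapped between groups. Its TPM did not, at 62.1 to 81.9 in Control and at 294 and 195 in RC48 replicates 1 and 3. NFKB1 did not pass (0.37, edgeR adjusted p = 0.15). With the GC correction NFKB1 passed as higher (0.35, adjusted p = 0.027), in a fit that called 4.14% of all genes higher. It was also called with voom and without RC48 replicate 2, fits that called 61.4% and 28.3% of all genes.

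SLC7A11 is also a target of ATF4, the factor of the amino acid and unfolded protein response. Of 8 such genes tested (PSAT1 was not), edgeR called 0. The median was 0.13, which turned to -0.09 with the GC correction. At an unadjusted p under 0.05 there was 1 of 8, ATF3, against 19.1% of all genes. ATF3 was at 84.0, 85.2 and 82.8 CPM in Control and at 104, 116 and 118 CPM in RC48 (0.42, SE 0.11, edgeR adjusted p = 0.12). With the GC correction it was at 0.33 (adjusted p = 0.059). Of the 8, edgeR called ATF3 alone, as higher, without RC48 replicate 1 and also without replicate 2. These fits called 6.82% and 28.3% of all genes. Without RC48 replicate 1 and with the GC correction, ATF3 passed as higher and PHGDH and TRIB3 as lower (12.9% of all genes were called). DESeq2 called 1, ATF3 as higher (4.78% of all genes were called), and voom 6, of which 3 were higher and 3 lower (61.4% of all genes were called). ATF4 itself was at 438, 453 and 427 CPM in Control and at 499, 440 and 480 CPM in RC48 (0.11, SE 0.11, edgeR adjusted p = 0.53), and at -0.10 with the GC correction. With the GC correction PHGDH (-0.41, adjusted p = 0.031) and TRIB3 (-0.45, adjusted p = 0.013) passed as lower (3.32% of all genes were).

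**Figure D4:**
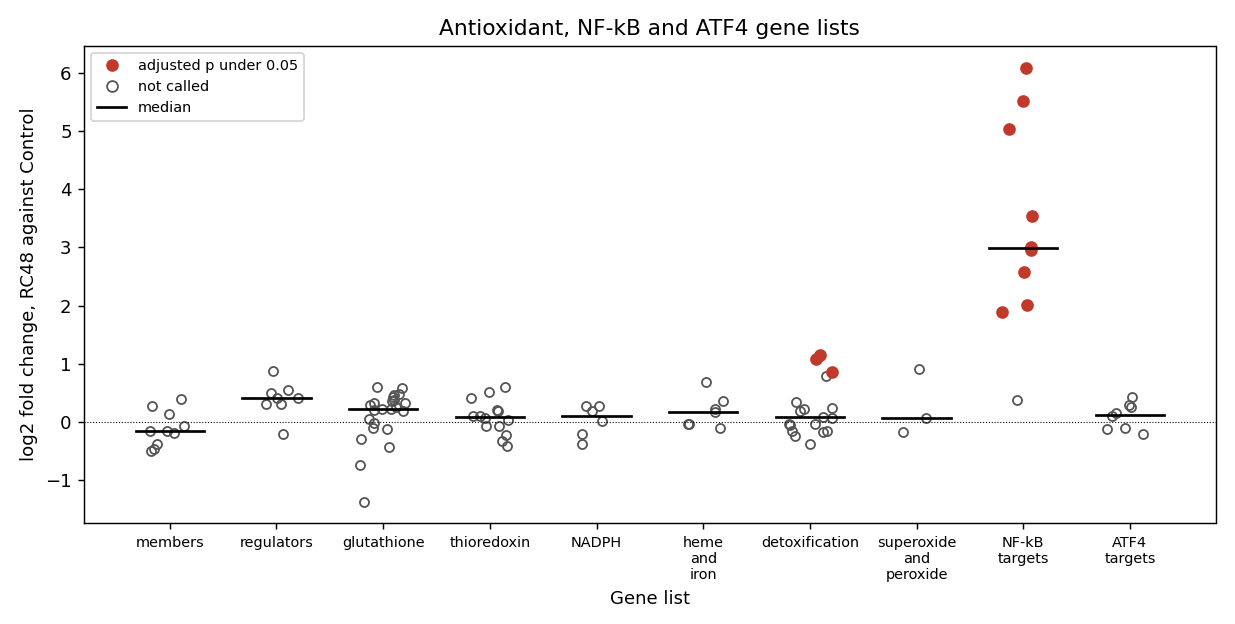
log2 fold change of RC48 against Control (edgeR) for the 10 genes (members) and for each gene list, 1 point per gene, with filled points at an adjusted p under 0.05 and a line at the median of the points drawn. The 10 genes and 6 of the 7 antioxidant lists have no filled point, the detoxification list has 3, and the NF-kB list has 9 drawn, with LTB, at 0 in Control, not drawn.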

How the data were processed

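The authors filtered reads (SOAPnuke), mapped them to reference genes with Bowtie2 and quantified genes with RSEM. The submitters' notes name hg38. Versions, annotation and strand handling were not given in the sources used here. The authors deposited 1 table of RSEM expected counts (estimated counts, 11.7% to 15% of genes not whole) per library, and TPM per library, used here for 5 of 6. Expected counts were rounded, filtered with filterByExpr, TMM-scaled and tested with edgeR 4.0.16 (quasi-likelihood, Benjamini-Hochberg over all 13055 genes, two-sided). The study's limma on log2(TPM + 1) was an alternative (limma 3.58.1), as was DESeq2 1.42.0. Both were run in R 4.3.3. The GC correction subtracted a loess trend (span 0.3) of each library on transcript GC content (GENCODE release 29, 12992 tested genes matched by NCBI gene number or symbol). Counts per TPM used genes with at least 100 counts and 2 TPM in 5 libraries. The fits were tested on simulated data. The 10 genes and the lists were chosen with earlier results of these data known. Other genes named were the 5 regulators, called list genes (up to 8 per list) and the highest gene of each list by CPM. NFKB1, ATF3, genes passing with the GC correction and those with the lowest counts per TPM were named after their values were seen. The counts-per-TPM measure and the SOD2 checks on TPM were added after seeing the data. Chi-square per degree of freedom between replicates was above 1 in each pair, so errors are given from replicates and not from counting.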

Additional observations from a re-analysis of the deposited data

How the results depend on the processing

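The 288 genes called overall became 676 with DESeq2, 8018 with voom, 2894 and 2829 with limma on log2(TPM + 1) and log2(TPM + 0.1), 975 with the GC correction, 736 with the replicate block and GC correction, 1697 without RC48 replicate 1 with GC correction, and 68 to 3726 with 1 library left out. Called among the 10 genes were 7 with voom, 4 on TPM with either pseudocount, 1 without RC48 replicate 1 with GC correction, 0 to 4 with 1 library left out (4 without RC48 replicate 2) and 0 otherwise. Called among the 79 antioxidant genes, 3 at first, were 6 with DESeq2, 52 with voom, 18 and 17 on TPM, 8 with the GC correction, 7 with block and GC correction, 13 without RC48 replicate 1 with GC correction, and 0 to 25 with 1 library left out. Of all genes tested, the first fit called 2.21%, DESeq2 4.78%, voom 61.4% and the TPM fits 22.2% and 21.7%. The GC correction called 7.47% of all genes, 5.64% with the block and 12.9% without RC48 replicate 1. Fits with 1 library left out called 0.515% (without Control replicate 3) to 28.3% (without RC48 replicate 2). The sign was reversed for NFE2L2 (0.017) and MAFG (-0.027) without RC48 replicate 1 with GC correction, HMOX1 with voom (0.056), SRXN1 with GC correction (-0.041), also with the block (-0.042) or without RC48 replicate 1 (-0.077), SLC7A11 with GC correction (0.0111), also with the block (0.0114), and BACH1 on TPM with both pseudocounts (-0.0056, -0.0094), and the cause was not tested. On log2(TPM + 1), SOD2 gave 1.45 to 2.05, and counts per TPM -2.13 to -1.34, with 1 library left out. The labels gave same-numbered libraries nothing in common but that number. Correlations of their deviations were -0.13 to 0.0048, beside -0.11 to 0.13 for other pairs, and cannot decide whether they were paired. The replicate block gave 331 calls (2.54% of all genes). It called none of the 10 genes, and MAFF passed with it (0.85, adjusted p = 0.034).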

Other observations

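After SOD2, the genes with the lowest counts per TPM relative to Control, named after their values were seen, were USP15 (log2 difference -1.06), CREB1 (-0.85), DNAJB14 (-0.82), C11orf71 (-0.75) and TMEM59 (-0.71). For USP15 the value came from RC48 replicate 1 (-2.11) and was -0.02 in replicate 3, whereas CREB1 (-0.96 and -0.73) and C11orf71 (-0.70 and -0.80) were low in both. None passed the limma test at an adjusted p of 0.05.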
